A study of Homo sapiens with 19 samples.

Results

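EMP1, EMP2, EMP3 and PMP22 encode small membrane proteins of 1 family, and each was followed here by a single transcript in MDA-MB-231, an established human line of triple-negative breast cancer. The members were chosen by transcript ID: ENST00000256951 for EMP1, ENST00000359543 for EMP2, ENST00000270221 for EMP3 and ENST00000312280 for PMP22, 4 of the 175775 transcripts in the deposited tables. EMP1 heads the choice, and the members were selected on a rule that draws on their estimated reads in all 6 groups of these libraries, without recording which difference led to it. Their levels and differences are therefore given as a description with errors, and no p-value is given for any of them. The pairing of ID and symbol comes from the same rule, since the tables list IDs alone.

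Proteins of this family cross the plasma membrane several times and belong to the wider group that also holds the claudins of tight junctions. EMP1 is known from epithelial tissues and tumours, where it sits at cell contacts. EMP2 regulates integrins and caveolae at the cell surface and has been studied as a target for antibodies in breast cancer. PMP22 is a component of the myelin of peripheral nerves.

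Poly(A) RNA from 17 libraries was sequenced. In the siRNA experiment, cells received STAT3 siRNA (siSTAT3, 2 libraries), HMGN5 siRNA (siHMGN5, 2 libraries) or control siRNA (Ctrl, 4 libraries). The lentiviral experiment held STAT3 siRNA with lentiviral HMGN5 (siSTAT3+HMGN5, 3 libraries), STAT3 siRNA with an empty vector (siSTAT3+Vector, 3 libraries) and control siRNA with the empty vector (Ctrl+Vector, 3 libraries). Every siRNA was used at 30 nM with the lipid reagent RNAiMAX, so all 6 groups share a transfection, and all 3 groups of the lentiviral experiment share an infection. STAT3 is a transcription factor activated by cytokine receptors through JAK kinases, and HMGN5 is a protein that binds nucleosomes. Neither the promoter that drives HMGN5 nor any selection of infected cells is stated in the labels. Nothing says that replicates are separate cultures, so an SD measures the spread between these libraries, which may be technical.

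Depth was 19114033 to 19509422 estimated reads per library without virus and 22500086 to 23047081 with it. The 4 Ctrl libraries formed pairs that stood apart. Over the 361 to 411 transcripts per pair of libraries whose estimated reads were whole to within 0.0015 reads in all libraries and summed to at least 20 over the pair, the chi-square statistic averaged 41.6 to 47.9 when a library of Ctrl replicates 1 and 2 was set against one of Ctrl replicates 3 and 4. Within a Ctrl pair it averaged 1.92 or 2.3, and within the remaining groups 1.74 to 5.83. Fold changes of EMP1 and EMP2 against Ctrl, and the counts of these 2 whose groups do not overlap, are for this reason also given against each pair. The depletion of STAT3 and of HMGN5, the ectopic HMGN5 and the markers of the cell line were not checked here, because their transcripts could not be identified by ID. Below, depletion and ectopic HMGN5 name the treatment given, not a measured change.

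EMP1 and EMP2 were detected in all 17 libraries, whereas the EMP3 and PMP22 transcripts lay at or near 0. The deposited TPM scale is per transcript length, so it allows these 4 transcripts, though not the sums of their genes, to be compared. On it, EMP1 averaged 5.98 to 34.6 TPM over the 6 groups and EMP2 averaged 0.897 to 5.69 TPM. The group means of EMP3 were 0.0336 to 0.484 TPM and those of PMP22 were 0 to 0.808 TPM. EMP1 was thus the most abundant of the 4 transcripts in each library, at 1.57 to 16.3 times the TPM of EMP2.

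EMP1 lies on chromosome 12 at 13196726 to 13219941 on the plus strand, and EMP2 on chromosome 16 at 10528422 to 10580598 on the minus strand, per RefSeq on GRCh38.p14, and each has 1 RefSeq transcript. Their start regions are shown as a description, and whether their letters bear on any difference between groups was not tested. The windows run from 250 bases before the start of the gene to 50 bases after it, at chr12:13196476-13196775 for EMP1 (plus strand) and chr16:10580549-10580848 for EMP2 (minus strand), and the sequences are from RefSeq. Capitals mark matches to the STAT consensus TTCNNNGAA and to TGANTCA, a loose form of the AP-1 consensus, searched on both strands. N stands for any letter.
EMP1: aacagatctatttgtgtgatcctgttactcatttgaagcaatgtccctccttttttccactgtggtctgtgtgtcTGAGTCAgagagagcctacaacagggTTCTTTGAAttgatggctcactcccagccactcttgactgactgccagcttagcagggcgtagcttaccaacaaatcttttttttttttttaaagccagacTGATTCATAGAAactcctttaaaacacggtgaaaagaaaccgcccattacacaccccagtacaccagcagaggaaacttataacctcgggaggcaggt
EMP2: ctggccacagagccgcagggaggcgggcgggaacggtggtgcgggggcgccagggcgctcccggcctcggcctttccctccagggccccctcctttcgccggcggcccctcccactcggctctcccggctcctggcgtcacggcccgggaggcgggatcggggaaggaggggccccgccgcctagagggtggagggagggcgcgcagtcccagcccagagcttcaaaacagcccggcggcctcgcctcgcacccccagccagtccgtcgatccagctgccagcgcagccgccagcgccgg

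The EMP1 window held 2 STAT matches, TTCTTTGAA starting 149 bases before the gene start and TTCATAGAA starting 45 bases before it. It also held 2 matches to the loose AP-1 letters, TGAGTCA starting 175 bases and TGATTCA starting 48 bases before the start. TGATTCA was found only because the middle letter was left free, and it shares its last letters with the second STAT match. Of 35116 such windows over all genes, 7.66% held the STAT letters at least once and 0.456% at least 2 times, and 7.71% held the AP-1 letters at least once and 0.515% at least 2 times. EMP2 had neither motif in its window, which was 77% G and C against 44.3% in that of EMP1. Neither did the 2 windows listed for EMP3 or the 3 listed for PMP22. The motifs were chosen with the sequences in view, and a match is a run of letters, not a measured binding site.

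The STAT3 siRNA was addressed with the empty vector by siSTAT3+Vector against Ctrl+Vector, and here EMP1 was 3.8-fold and EMP2 4.47-fold lower. EMP1 had 98.8, 101 and 104 CPM (reads scaled to a common library size by TMM over the 17 libraries) in siSTAT3+Vector, against 405, 381 and 370 CPM in Ctrl+Vector. All 3 STAT3-depleted libraries lay below all 3 controls, and the spread inside each group was small beside the gap. The means were 101 ± 2.44 CPM in siSTAT3+Vector and 385 ± 17.6 CPM in Ctrl+Vector (SD, n = 3 each), with a log2 fold change of -1.93 ± 0.04 (SE, edgeR fit over all transcripts). In a bulk library, fewer cells with a transcript and less of it per cell cannot be told apart.

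EMP2 had 11.9, 11.8 and 13.6 CPM in siSTAT3+Vector, against 62.9, 50.8 and 53.1 CPM in Ctrl+Vector. Again no STAT3-depleted library reached any control. The means were 12.4 ± 1 CPM in siSTAT3+Vector and 55.6 ± 6.46 CPM in Ctrl+Vector (SD, n = 3 each), with a log2 fold change of -2.16 ± 0.11 (SE). Of the 4 members, these 2 had groups that did not overlap, and 36.3% of the 69768 transcripts tested had groups that did not overlap in either direction. Nothing is read from that count, since the choice of members drew on this comparison.

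Both differences lay at the low edge among the transcripts at 10 CPM or more. Among 15743 such transcripts, whose median log2 fold change was 0.05, 211 had a lower value than EMP1 and 142 a lower value than EMP2. Over all 69768 transcripts tested, 4.42% had a lower value than EMP1 and 3.57% a lower value than EMP2. The difference between EMP1 and EMP2 was not tested.

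**Figure D1:**
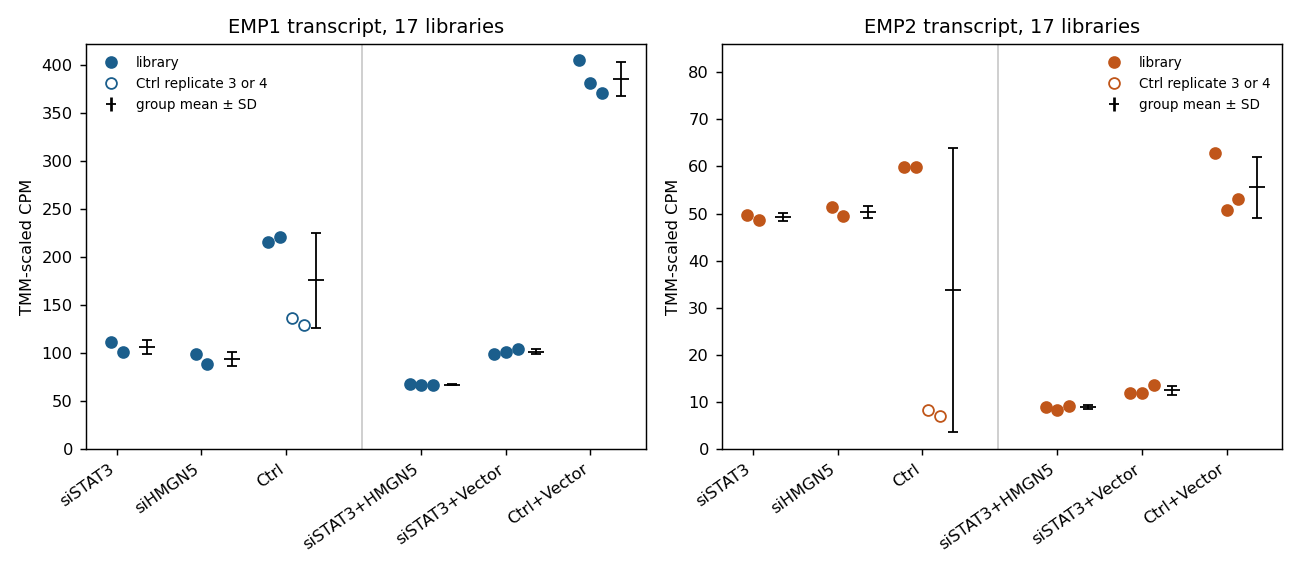
Level of the EMP1 (left) and EMP2 (right) transcripts in each library, in TMM-scaled CPM, by group, with the siRNA experiment left of the grey line and the lentiviral experiment right of it; points are libraries, open points are Ctrl replicates 3 and 4, and bars are group means ± SD. EMP1 lay at 98.8 to 104 CPM in siSTAT3+Vector against 370 to 405 CPM in Ctrl+Vector, and EMP2 spanned 7.02 to 60 CPM inside the Ctrl group alone.

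What ectopic HMGN5 did to both transcripts after STAT3 depletion was asked by siSTAT3+HMGN5 against siSTAT3+Vector. Neither transcript was nearer to Ctrl+Vector with HMGN5; both were lower again. EMP1 had 67.3, 67 and 66.8 CPM in siSTAT3+HMGN5, against 98.8, 101 and 104 CPM in siSTAT3+Vector. The 3 HMGN5 libraries were almost equal and all lay below the vector libraries. Their mean of 67 ± 0.246 CPM was 1.51-fold lower than that of siSTAT3+Vector, at 101 ± 2.44 CPM (SD, n = 3 each), with a log2 fold change of -0.59 ± 0.04 (SE).

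EMP2 had 8.9, 8.36 and 9.21 CPM in siSTAT3+HMGN5, against 11.9, 11.8 and 13.6 CPM in siSTAT3+Vector. The groups did not overlap here either. The means were 8.82 ± 0.429 CPM in siSTAT3+HMGN5 and 12.4 ± 1 CPM in siSTAT3+Vector (SD, n = 3 each), a log2 fold change of -0.49 ± 0.10 (SE). Non-overlapping groups were found for these 2 of the 4 members and for 25.4% of all transcripts tested. At 10 CPM or more, 1227 of 15743 transcripts had a lower log2 fold change than EMP1 and 1681 a lower one than EMP2, so these differences were less far out than those of the STAT3 siRNA.

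Set directly against Ctrl+Vector, siSTAT3+HMGN5 libraries had 5.74-fold less EMP1 (log2 fold change -2.52 ± 0.04, SE) and 6.29-fold less EMP2 (-2.65 ± 0.11, SE). This comparison shares its libraries with the 2 before it. Again 2 of the 4 members had groups that did not overlap, against 43% of transcripts tested.

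In the siRNA experiment, which has no vector, the STAT3 siRNA was addressed by siSTAT3 against Ctrl, and EMP1 was lower while EMP2 lay between its controls. EMP1 had 111 and 101 CPM in siSTAT3, against 215, 221, 136 and 129 CPM in Ctrl replicates 1 to 4. Both siSTAT3 libraries lay below every control, although the controls themselves were split. The siSTAT3 mean of 106 ± 6.93 CPM (SD, n = 2) stood against a Ctrl mean of 175 ± 49.4 CPM (SD, n = 4), a 1.63-fold lower level with a log2 fold change of -0.71 ± 0.26 (SE). Against Ctrl replicates 1 and 2 alone the log2 fold change was -1.03 ± 0.08 (SE), and against Ctrl replicates 3 and 4 alone it was -0.31 ± 0.09 (SE). At 10 CPM or more, 2794 of 15934 transcripts (17.5%) had a lower log2 fold change than EMP1, so its difference stood less far out than in the vector cells.

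EMP2 had 49.8 and 48.7 CPM in siSTAT3, against 59.9, 60, 8.3 and 7.02 CPM in Ctrl replicates 1 to 4. The siSTAT3 libraries lay between the control pairs. The log2 fold change was 0.56 ± 0.91 (SE) with all 4 controls, smaller than its own error. It was -0.27 ± 0.05 (SE) against Ctrl replicates 1 and 2 and 2.69 ± 0.11 (SE) against Ctrl replicates 3 and 4, so its sign depended on the pair. Of the 4 members, EMP1 alone had groups that did not overlap, against 30.8% of the 74346 transcripts tested. Set against 1 pair of controls, EMP1 and EMP2 both had groups that did not overlap, beside 51.9% of transcripts with Ctrl replicates 1 and 2 and 53.9% with Ctrl replicates 3 and 4.

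The split of the controls was wider for EMP2 than for EMP1. Ctrl replicates 1 and 2 averaged 7.82 times the EMP2 level of Ctrl replicates 3 and 4, and 1.64 times their EMP1 level. The pairs carry the same label, so for EMP2 libraries of 1 treatment differed by more than the 4.47-fold seen with STAT3 siRNA in the vector cells. What sets the pairs apart was not tested.

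HMGN5 depletion was addressed by siHMGN5 against Ctrl, with the same control libraries. EMP1 had 98.9 and 88.2 CPM in siHMGN5, below each of the 4 Ctrl values given above. The means were 93.5 ± 7.61 CPM in siHMGN5 (SD, n = 2) and 175 ± 49.4 CPM in Ctrl (SD, n = 4), a 1.84-fold lower level with a log2 fold change of -0.88 ± 0.27 (SE). It was -1.20 ± 0.08 (SE) against Ctrl replicates 1 and 2 and -0.47 ± 0.09 (SE) against Ctrl replicates 3 and 4. Of the 15934 transcripts at 10 CPM or more, 1931 (12.1%) had a lower value than EMP1 with all 4 controls.

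EMP2 had 51.3 and 49.5 CPM in siHMGN5, again between the control pairs, with a log2 fold change of 0.60 ± 0.91 (SE). The value was -0.23 ± 0.05 (SE) against Ctrl replicates 1 and 2 and 2.75 ± 0.11 (SE) against Ctrl replicates 3 and 4. EMP1 was once more the 1 member of 4 whose groups did not overlap, beside 30.5% of all transcripts tested. Against 1 pair of controls, EMP1 and EMP2 again both had groups that did not overlap, beside 50.4% of transcripts with Ctrl replicates 1 and 2 and 54.9% with Ctrl replicates 3 and 4.

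Between the knockdowns the transcripts lay close. EMP1 averaged 106 ± 6.93 CPM in siSTAT3 and 93.5 ± 7.61 CPM in siHMGN5 (SD, n = 2 each), with a log2 fold change of 0.17 ± 0.30 (SE). The CPM values of EMP1 did not overlap, which held for 53.5% of transcripts tested, and its TPM values did overlap. EMP2 averaged 49.2 ± 0.775 CPM in siSTAT3 and 50.4 ± 1.31 CPM in siHMGN5, with a log2 fold change of -0.041 ± 1.07 (SE). That SE is wide because the fit takes the spread of EMP2 from all 3 groups, the split Ctrl group included.

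**Figure D2:**
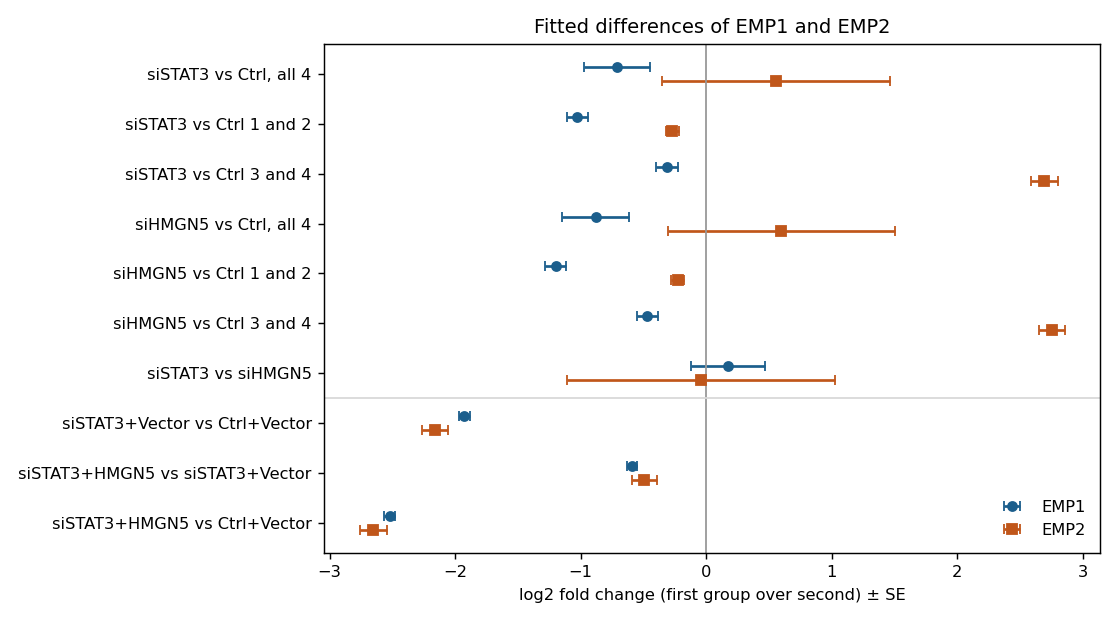
Fitted log2 fold change (horizontal axis) of EMP1 and EMP2 in each comparison, first group over second, with bars of 1 SE, and for Ctrl also against each pair of its libraries. EMP1 lay left of 0 against either Ctrl pair, at -0.31 to -1.20, while EMP2 lay at -0.27 and -0.23 against Ctrl replicates 1 and 2 and at 2.69 and 2.75 against Ctrl replicates 3 and 4.

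The STAT3 siRNA results of the 2 experiments stood side by side as follows. EMP1 had a log2 fold change of -1.93 ± 0.04 (SE) in siSTAT3+Vector against Ctrl+Vector and of -0.71 ± 0.26 (SE) in siSTAT3 against Ctrl. The STAT3-depleted levels were near each other, with means of 101 CPM in siSTAT3+Vector and 106 CPM in siSTAT3, and the controls were apart, with means of 385 CPM in Ctrl+Vector and 175 CPM in Ctrl (218 CPM in replicates 1 and 2 and 133 CPM in replicates 3 and 4). For EMP2 the STAT3-depleted levels were apart, at 12.4 ± 1 CPM in siSTAT3+Vector and 49.2 ± 0.775 CPM in siSTAT3. Its control mean was 55.6 ± 6.46 CPM in Ctrl+Vector and 33.8 CPM in Ctrl, where it was 59.9 CPM in replicates 1 and 2 and 7.66 CPM in replicates 3 and 4. The difference between experiments was not tested, and infection and experiment cannot be told apart.

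**Figure D3:**
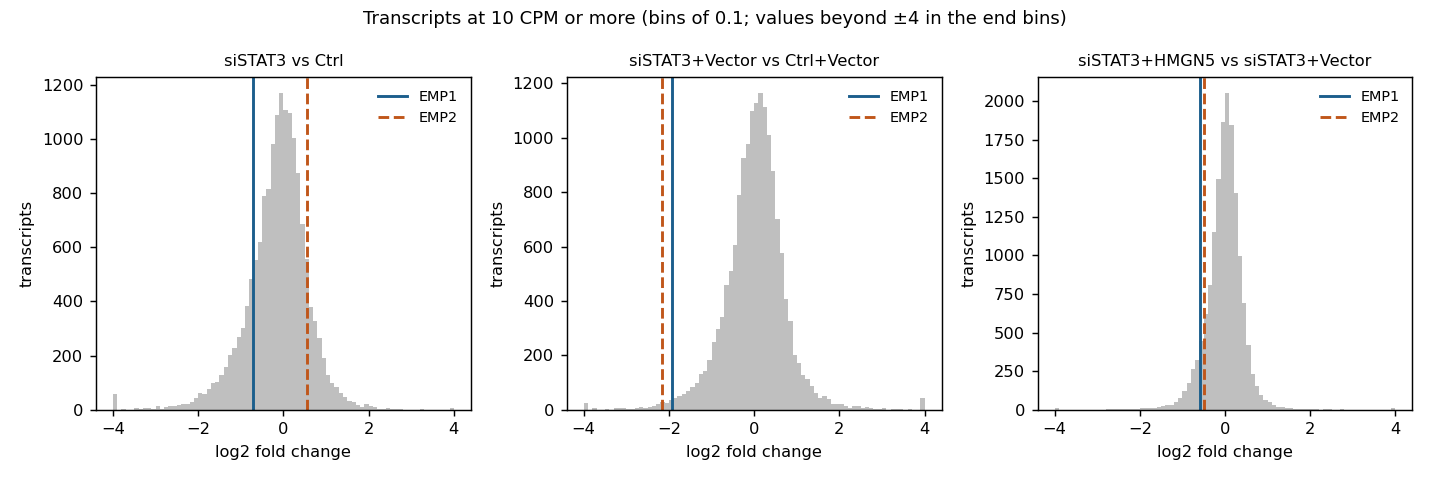
Histograms of log2 fold changes of all transcripts at 10 CPM or more in 3 comparisons (horizontal axis, log2 fold change; vertical axis, number of transcripts), with EMP1 as a solid and EMP2 as a dashed line. Both lines stood at the low edge for siSTAT3+Vector vs Ctrl+Vector, at -1.93 and -2.16, and on opposite sides of 0 for siSTAT3 vs Ctrl, at -0.71 and 0.56.

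Ordered by level, EMP1 was lowest in siSTAT3+HMGN5 (67 CPM), followed by siHMGN5 (93.5 CPM), siSTAT3+Vector (101 CPM), siSTAT3 (106 CPM), Ctrl (175 CPM) and Ctrl+Vector (385 CPM). The libraries of siHMGN5 overlapped with those of siSTAT3+Vector, and those of siSTAT3+Vector with those of siSTAT3, so these neighbours do not differ beyond their spread. The order for EMP2 was siSTAT3+HMGN5 (8.82 CPM), siSTAT3+Vector (12.4 CPM), Ctrl (33.8 CPM), siSTAT3 (49.2 CPM), siHMGN5 (50.4 CPM) and Ctrl+Vector (55.6 CPM). There siSTAT3 and siHMGN5 overlapped, as did siHMGN5 and Ctrl+Vector, and the Ctrl group with its 2 pairs spanned nearly the whole order.

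Because scaling cancels within a library, EMP2 was also expressed as a percentage of the EMP1 TPM of the same library. In the lentiviral experiment the ratio stayed in a narrow band while both levels differed several-fold, at 15 ± 0.77% in siSTAT3+HMGN5, 13.9 ± 0.836% in siSTAT3+Vector and 16.5 ± 1.26% in Ctrl+Vector (SD, n = 3 each). The siSTAT3+Vector libraries, at 13.3% to 14.9%, all lay just below those of Ctrl+Vector, at 15.3% to 17.8%. In the siRNA experiment it was 51% and 54.5% in siSTAT3 and 59.1% and 63.7% in siHMGN5, against 31.7%, 31%, 6.96% and 6.12% in Ctrl replicates 1 to 4. Both knockdowns lay above every control library in this ratio, but the transcript that differed most depended on the pair. Against Ctrl replicates 1 and 2, EMP1 had log2 fold changes of -1.03 (siSTAT3) and -1.20 (siHMGN5), and EMP2 -0.27 and -0.23. Against Ctrl replicates 3 and 4, EMP1 had -0.31 and -0.47, and EMP2 2.69 and 2.75. The share of other transcript pairs with such ratios was not computed. Nothing is read from ratios that do not overlap, since the choice of members drew on these libraries.

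**Figure D4:**
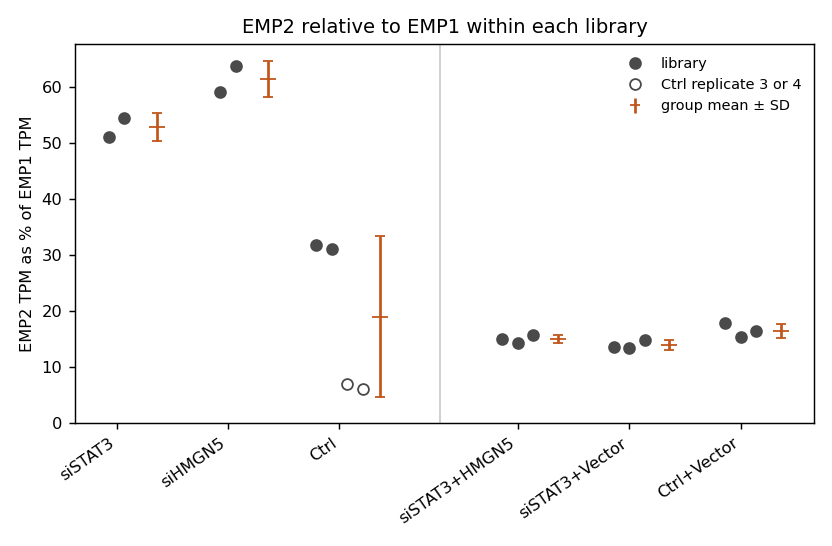
EMP2 TPM as a percentage of EMP1 TPM in each library (vertical axis), by group, with open points for Ctrl replicates 3 and 4 and bars for group means ± SD. The siSTAT3 and siHMGN5 libraries sit at 51% to 63.7%, the Ctrl pairs near 31% and below 7%, and the 9 libraries of the lentiviral experiment at 13.3% to 17.8%.

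EMP3 is on chromosome 19 at 48325552 to 48330553 (plus strand, 3 RefSeq transcripts), and its transcript of 876 bases gave few reads. The estimated reads were 24.1 and 0 in siSTAT3, 4.29 and 3.53 in siHMGN5, and 14.9, 4.03, 0 and 0 in Ctrl replicates 1 to 4. In the lentiviral experiment they were 2.94, 8.12 and 0 in siSTAT3+HMGN5, 0, 0 and 5.26 in siSTAT3+Vector, and 2.9, 0 and 0 in Ctrl+Vector. It was listed at 0 in 8 of 17 libraries, groups overlapped in every comparison, and no direction can be read. The limit that a count of 0 allows, 3 reads, equals 0.133 to 0.158 CPM, so differences at this level were not detectable at this depth.

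PMP22, on chromosome 17 at 15229779 to 15265326 (minus strand, 10 RefSeq transcripts), was listed at 0 in 12 of 17 libraries. The remaining values were 107 estimated reads in siHMGN5 replicate 2, 26.5 in siSTAT3+Vector replicate 2, 15 and 7.61 in siSTAT3+HMGN5 replicates 2 and 3, and 7.38 in Ctrl+Vector replicate 3. The highest value thus stood beside a 0 in the other siHMGN5 library, 106.56 reads against none in cells given the same siRNA. Both EMP3 and PMP22 have several transcripts in RefSeq, and 1 ID was followed for each. A low value therefore says nothing about the sum of the gene. EMP1 and EMP2 were also followed by 1 ID each, with reads that were not whole in any library. Their differences are those of the transcript, and sums per gene were not made. Whether reads of any of these genes were assigned to other transcripts was not tested. EMP1, EMP2 and EMP3 passed the filter on low counts in the siRNA experiment, and EMP1 and EMP2 did so in the lentiviral one.

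The transcripts most like EMP1 were sought by Pearson correlation of log2(CPM + 1) over the 17 libraries, among 15854 others with a mean of at least 10 CPM. They were ENST00000542289 (r = 0.982) and ENST00000413823 (r = 0.981), given as a description with no test, since libraries of 1 group share their treatment. The order depended on the measure: by Spearman's rho they ranked 31 and 19, and by Pearson's r on values centred within each experiment 3 and 9. ENST00000542289 averaged 16.5 ± 1.33 CPM in siSTAT3+Vector and 51.9 ± 4.65 CPM in Ctrl+Vector (SD, n = 3 each). ENST00000413823 averaged 10.2 ± 0.245 CPM in siSTAT3+Vector and 46.9 ± 3.77 CPM in Ctrl+Vector (SD, n = 3 each). The tables do not name the genes of either ID, and shared reads with EMP1 were not tested. EMP2 stood at rank 1597 of the 15854 by Pearson's r over the 17 libraries, with r = 0.615.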

How the data were processed

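The members and the motifs were chosen with earlier results of these data known. For each of the 17 RNA libraries the authors deposited a table of transcripts with length, effective length, TPM and estimated counts. Salmon 1.4.0 is named in the submitters' processing notes, with GRCh38 as a build; transcript release and mapping options are not stated. The deposited counts are expected counts: a read shared by several transcripts is divided by a model, and no member had whole counts in any library where it was detected. Isoforms can therefore trade reads. TPM as deposited is per effective length, with a fixed total per library.

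Expected counts were rounded and fitted with edgeR 4.0.16 in R 4.3.3 (TMM, filterByExpr, glmQLFit on group means), the siRNA and lentiviral experiments apart. The SE of a log2 fold change was its size over the square root of the quasi-likelihood statistic. The fit was tested on simulated data. CPM values were scaled over all 17 libraries, so their ratios can differ slightly from the fits. Alternatives used DESeq2 1.42.0, limma-voom 3.58.1, other scalings, filters and sets of libraries. Named transcripts were the 4 members and the 2 most correlated with EMP1 by Pearson's r. Lists of related genes and partners had been planned and were not run, because no table at hand pairs transcript IDs with symbols. The 2 H3K27ac CUT&Tag samples were not analysed here. No pair of replicates agreed within counting noise, so no libraries were merged and each entered the fits as 1 sample. Such a spread can also arise between libraries of 1 culture, so it does not show that replicates are separate cultures. The limit of 3 reads covers counting error only.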

Additional observations from a re-analysis of the deposited data

Results flagged for a closer look

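The fitted EMP2 values of the experiments had opposite signs with all 4 Ctrl libraries, but no difference in direction is established. With STAT3 siRNA, both siSTAT3 libraries lay above the mean of the 4 Ctrl libraries (log2 fold change 0.56 ± 0.91, SE), and all 3 siSTAT3+Vector libraries lay below the mean of Ctrl+Vector (-2.16). The difference between the experiments was not tested. Against Ctrl replicates 1 and 2 alone, the siSTAT3 value was -0.27, and against Ctrl replicates 3 and 4 alone it was 2.69.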

How the results depend on the processing

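The lentiviral results moved little: over 6 fits that each left out 1 library and 8 other settings per comparison, EMP1 kept -1.97 to -1.89 for siSTAT3+Vector vs Ctrl+Vector, -0.61 to -0.58 for siSTAT3+HMGN5 vs siSTAT3+Vector and -2.56 to -2.48 for siSTAT3+HMGN5 vs Ctrl+Vector, and EMP2 kept -2.23 to -2.06, -0.53 to -0.43 and -2.72 to -2.55 in the same order (log2 fold changes). Results against Ctrl depended on which Ctrl libraries were used, and those of EMP2 also on the method. With limma-voom and all 4 controls, EMP2 had 1.21 in siSTAT3 and 1.25 in siHMGN5, against 0.56 and 0.60 with edgeR. With Ctrl replicates 1 and 2 alone, EMP1 had -1.03 in siSTAT3 and -1.20 in siHMGN5, and EMP2 had -0.27 and -0.23, reversed from the values with all 4. With Ctrl replicates 3 and 4 alone, EMP1 had -0.31 and -0.47, and EMP2 had 2.69 and 2.75. Fits with a replicate block gave -1.03 and -1.20 for EMP1 and -0.27 and -0.23 for EMP2, because Ctrl replicates 3 and 4 are each alone in their block and drop out. No clear pairing by replicate number was seen: same-numbered libraries of different groups had deviations correlated at -0.083 to 0.073. In the siRNA experiment these correlations were 0.0046 to 0.049. Deviations of Ctrl there include the split of its pairs, so the check cannot decide on a pairing with Ctrl. Leaving out 1 library gave -0.83 to -0.58 for EMP1 and 0.22 to 0.99 for EMP2 in siSTAT3 vs Ctrl, and -1.003 to -0.75 and 0.26 to 1.03 in siHMGN5 vs Ctrl; the low EMP2 values came without Ctrl replicate 3 or 4. For siSTAT3 vs siHMGN5, EMP2 ranged from -0.079 to -0.022 and EMP1 from 0.08 to 0.25 with 1 library left out. There EMP1 and EMP2 counted 1 transcript whose groups did not overlap in CPM and 0 in the deposited TPM. With 1 Ctrl pair alone, an alternative chosen after seeing the data, the count for EMP1 and EMP2 was 2 in siSTAT3 vs Ctrl and in siHMGN5 vs Ctrl, against 1 with all 4. Of 172 recomputed log2 fold changes, 159 kept their sign and moved by less than the spread between replicates, and 9 moved by more. The other 4, all of EMP2 in siSTAT3 or siHMGN5 vs Ctrl, changed sign. For EMP2 against Ctrl that spread was 1.15 in log2, the split Ctrl group included. Large moves there still counted as within the spread, so the tally says little about those results.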
